A study of Mus musculus with 11 samples.

Results

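Chil3 and Chil4 encode the secreted chitinase-like proteins Ym1 and Ym2, and Rnase2a encodes a secreted ribonuclease listed also as Ear11. These 3 of the 754 genes measured on a Nanostring myeloid panel were chosen by their counts after IL-4 complex (IL-4c) and after PBS, which stood far apart, so that contrast is described here and not tested. The study asked how macrophages that lack the IL-4-induced protein RELMα, the product of Retnla, respond to IL-4. Female C57BI/6 mice (strain as the labels spell it), 6 to 8 weeks old, carried either the intact gene (Rα+/+) or the knockout allele on both copies (RαTd/Td). In the allele, Retnla exons are replaced by a TdTomato reporter, and a Cre deleter driven by the broadly active CMV promoter was used to make it, so the deletion is not limited to macrophages. Mice received IL-4c or PBS into the peritoneal cavity on days 0 and 2, and F4/80+CD11b+ peritoneal macrophages were sorted on day 4. There were 2 Rα+/+ mice (mice 1 and 2) and 2 RαTd/Td mice (3 and 4) given PBS, and 3 Rα+/+ mice (5, 6 and 7) and 4 RαTd/Td mice (9, 10, 11 and 12) given IL-4c, with 1 mouse in each sample and a single experiment. An Rα+/+ mouse given IL-4c that the study removed is not analysed here.

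Interleukin-4 binds a receptor that contains IL-4Rα, Janus kinases then phosphorylate STAT6, and STAT6 enters the nucleus and switches on a set of genes called alternative activation. In mouse macrophages this set is known for Retnla and Chil3. Chitinase-like proteins keep the fold of chitinases but lack the residues needed to cleave chitin, and Ym1 can form crystals in the lung during type 2 inflammation. Rnase2a belongs to the eosinophil-associated ribonucleases of the ribonuclease A superfamily, a rodent group with many recent gene copies.

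The values are counts that the authors scaled to 4 housekeeping genes, here called normalized counts, and low values were listed as 30, the floor. The scaling factor lay between 0.75 and 1.88, and the lowest measurable value differed between mice. A transcript had to reach 30.5 normalized counts in mouse 9 but 56.3 in mouse 4 to be seen. Values above 30 but below the lowest measurable value of a mouse were thus also listed as 30. The depth, as counts over all genes above the floor, was 297254 and 551546 in mice 1 and 2, 268858 and 280396 in mice 3 and 4, 487815, 505629 and 574505 in mice 5, 6 and 7, and 517820, 523942, 471081 and 447267 in mice 9, 10, 11 and 12. Retnla, the targeted gene, read 4631 and 4141 normalized counts in the Rα+/+ mice given PBS and 115675, 147349 and 171588 in the Rα+/+ mice given IL-4c. It was at the floor in 6 of 6 RαTd/Td mice, so the genotype labels hold in all 11 mice. The macrophage markers Adgre1, Itgam, Csf1r, Cd68 and Mertk, 5 of 5 listed, were above the floor in all 11 mice, with sums from 22298 to 28965 normalized counts and Itgam as the most abundant by its mean over the 11 mice, as for the lists below. In these sums a gene at the floor adds 0, so they leave out any amount below the lowest measurable value. The sort mixes large and small peritoneal macrophages, and in such bulk lysates fewer cells of a type and less RNA per cell cannot be told apart.

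All 3 members (3 of 3) had an entry among the RefSeq promoters of build GRCm38.p6, 300 bases each from 250 before to 50 after the listed start. Their sequences are shown because the 3 genes moved together after IL-4c and because Chil3 and Chil4 are neighbours. The Chil3 window is chr3:106167515-106167814, the Chil4 window is chr3:106219430-106219729 and the Rnase2a window is chr14:51256063-51256362, all on the minus strand and printed 5′ to 3′ along the gene. Capitals mark matches to 4 motifs searched on both strands, with letters chosen after the sequences had been seen: TTC and GAA set 4 bases apart and TTCNNNGAA, with 3 bases between, both written for STAT dimers, AGGAAGT, written for PU.1, a factor that defines the macrophage lineage, and TATAAA, the TATA box.
Chil3: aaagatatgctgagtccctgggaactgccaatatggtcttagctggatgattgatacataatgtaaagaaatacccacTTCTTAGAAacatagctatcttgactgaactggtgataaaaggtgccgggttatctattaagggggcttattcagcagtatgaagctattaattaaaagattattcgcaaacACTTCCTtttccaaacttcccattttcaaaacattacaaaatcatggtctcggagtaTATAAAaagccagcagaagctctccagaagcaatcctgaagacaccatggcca
Chil4: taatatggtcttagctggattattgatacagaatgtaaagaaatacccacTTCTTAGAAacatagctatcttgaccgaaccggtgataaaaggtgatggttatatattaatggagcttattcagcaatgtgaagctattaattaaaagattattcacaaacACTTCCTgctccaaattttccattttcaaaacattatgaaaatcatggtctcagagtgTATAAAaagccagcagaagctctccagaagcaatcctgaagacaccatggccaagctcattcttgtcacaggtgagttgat
Rnase2a: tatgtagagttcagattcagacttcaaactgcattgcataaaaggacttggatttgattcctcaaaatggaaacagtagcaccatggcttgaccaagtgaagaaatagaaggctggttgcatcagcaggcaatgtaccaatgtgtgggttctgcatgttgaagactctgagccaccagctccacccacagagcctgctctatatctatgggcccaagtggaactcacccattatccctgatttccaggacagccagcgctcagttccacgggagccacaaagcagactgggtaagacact

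The Chil3 and Chil4 windows share 251 of 272 aligned bases (92.3% identity, 2 gap columns), and the listed Chil3 start falls 28 bases before that of Chil4 in the alignment. The match TTCTTAGAA to TTCNNNGAA lies 172 to 164 bases upstream of the Chil3 start and 200 to 192 bases upstream of the Chil4 start. AGGAAGT is present on the other strand, read as ACTTCCT, from 60 to 54 bases upstream in Chil3 and from 89 to 83 in Chil4. TATAAA begins 3 bases upstream of the listed Chil3 start and 31 bases upstream of the Chil4 start. The listed Chil3 start thus falls inside its TATAAA match, and if transcription begins elsewhere, every distance given for Chil3 shifts. Neither the Chil3 nor the Chil4 window holds the first motif. The Rnase2a window holds none of the 4 motifs and aligns with either chitinase-like promoter over only 11 columns. Of 32851 promoters, 6.95% hold the first motif, 8.3% TTCNNNGAA, 9.35% AGGAAGT and 13.6% TATAAA, and a match describes letters only. The order of protein-coding genes in GRCm38.p6 on chromosome 3 runs Chia1, Chil3, Chil4, Chil6, which places both genes within a run of chitinase family members. On chromosome 14 Rnase2a follows Rnase1, Rnase2b, Ang2 and Ear14, all of the ribonuclease A family.

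Chil3, which encodes Ym1, was at the floor in all 4 mice given PBS. After IL-4c it read 56993, 75307 and 91581 normalized counts in Rα+/+ mice 5, 6 and 7, a mean of 74627 ± 17304 (SD, n = 3). In RαTd/Td mice 9, 10, 11 and 12 it read 69620, 81626, 55754 and 43527, a mean of 62632 ± 16552 (SD, n = 4). Mouse 7 was highest and mouse 12 lowest of the 7, and the values of the 2 genotypes overlapped. Against the lowest value measurable in the PBS mice, the geometric mean was at least 1902-fold higher after IL-4c in Rα+/+ and at least 1084-fold higher in RαTd/Td mice.

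Chil4, which encodes Ym2, was above the floor in 1 of 4 mice given PBS, at 53.1 normalized counts in mouse 1. After IL-4c it read 44973, 58643 and 72000 in mice 5, 6 and 7, a mean of 58539 ± 13514 (SD, n = 3). It read 58808, 67801, 45820 and 33420 in mice 9, 10, 11 and 12, a mean of 51462 ± 15036 (SD, n = 4). The extremes were again mouse 7 and mouse 12, and the genotypes overlapped here as well. The geometric mean was at least 1423-fold higher after IL-4c in Rα+/+ mice, with mouse 1 at its own value and mouse 2 at its lowest measurable value, and at least 885-fold higher in RαTd/Td mice.

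Counts of Chil3 and Chil4 together made up 18.3%, 21.8% and 24.5% of all counts above the floor in mice 5, 6 and 7. The exact Clopper-Pearson 95% intervals, which cover counting error only, were 18.1 to 18.4%, 21.7 to 21.9% and 24.4 to 24.7%. In the RαTd/Td mice, in which Retnla adds no counts to the total, the share was 26.05% in mouse 9 (interval 25.9 to 26.2%), 27.6% in mouse 10 (27.5 to 27.7%), 20.004% in mouse 11 (19.9 to 20.1%) and 14.99% in mouse 12 (14.9 to 15.1%). The shares of the 2 genotypes overlapped.

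Rnase2a was at the floor in all 4 mice given PBS. After IL-4c it read 1656, 3812 and 3450 normalized counts in mice 5, 6 and 7, a mean of 2973 ± 1155 (SD, n = 3), and 2681, 5703, 1430 and 2192 in mice 9, 10, 11 and 12, a mean of 3002 ± 1873 (SD, n = 4). Both the highest and the lowest mouse, 10 and 11, were RαTd/Td, so the Rα+/+ values lay inside the RαTd/Td range. The geometric mean was at least 72.5-fold higher after IL-4c in Rα+/+ and at least 46.8-fold higher in RαTd/Td mice.

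Every mouse given IL-4c stood above every mouse given PBS for 3 of 3 members in each genotype, which the choice of members fixes. Among the 445 genes with a mean above 30, limma called 13.9% higher and 32.4% lower with IL-4c in the Rα+/+ genotype, and for RαTd/Td the shares were 15.3% and 36.6%, at an adjusted p of 0.05 or less. By fitted log2 difference Chil3, Chil4 and Rnase2a ranked 1, 2 and 3 in each genotype, with PBS values at the floor apart from Chil4 in mouse 1. Of the other genes used here, the largest were Retnla at 5.03, Il1rl1 at 3.82, Ccnb2 at 3.55, Top2a at 3.09 and 2810417H13Rik at 2.88 in Rα+/+ mice. In RαTd/Td mice they were Ccnb2 at 3.50, Top2a at 3.23, Il1rl1 at 2.93, Kif20a at 2.62 and Tgm2 at 2.59. This order rests on the floor, at which Il1rl1, Ccnb2 and Kif20a stood in all PBS mice and 2810417H13Rik and Tgm2 in 1 of the 2 compared. Against the lowest measurable values, a comparison added after the values were seen, the folds were at least 11.4 for Il1rl1, 9.39 for Ccnb2 and 5.94 for 2810417H13Rik in Rα+/+ mice. In RαTd/Td mice they were at least 6.20 for Ccnb2, 4.19 for Il1rl1, 3.38 for Kif20a and 4.48 for Tgm2. Top2a, above the floor in all 11 mice, was 8.61-fold higher in Rα+/+ and 9.54-fold higher in RαTd/Td mice, so the order of these genes is not fixed. Ccnb2, Top2a and Kif20a are genes of cell division.

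**Figure D1:**
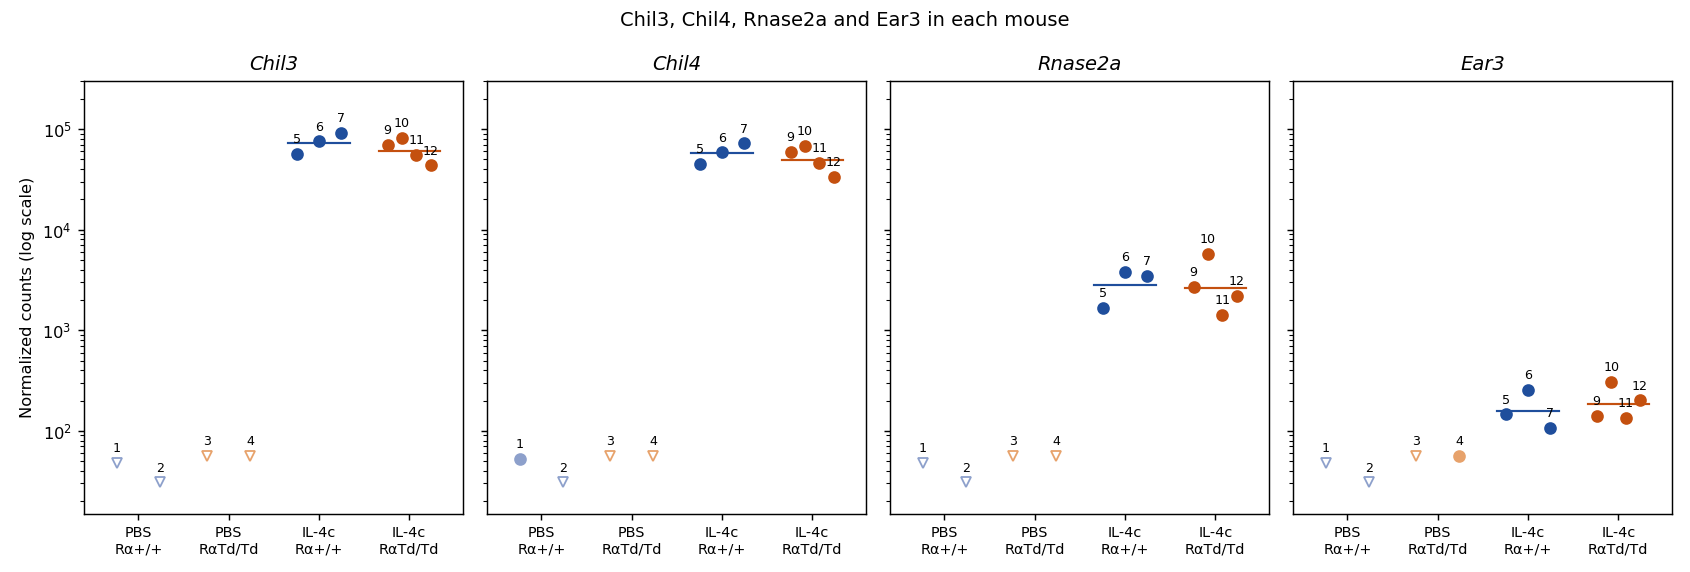
Normalized counts (log scale) of Chil3, Chil4, Rnase2a and Ear3 in each of the 11 mice, with open triangles at the lowest measurable value of mice at the floor and lines at the geometric mean of each group given IL-4c. After IL-4c Chil3 lay between 43527 and 91581, Chil4 between 33420 and 72000 and Rnase2a between 1430 and 5703, with the 2 genotypes overlapping for each gene.

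Relatives of the members were few on the panel. Of 10 chitinase family genes listed, 2 were measured, Chil3 and Chil4 themselves. Of 11 ribonuclease A family genes listed, 3 were measured, and Rnase2b and Ear6 were at the floor in all 11 mice. Ear3, a further eosinophil-associated ribonuclease that was outside the lists and was picked after its values were seen, was above the floor in 1 of 4 mice given PBS, at 56.3 in mouse 4. After IL-4c Ear3 read 145, 254 and 107 normalized counts in mice 5, 6 and 7 and 140, 307, 134 and 201 in mice 9, 10, 11 and 12. Its geometric mean was at least 4.10-fold higher after IL-4c in Rα+/+ mice and at least 3.28-fold higher in RαTd/Td mice. Mouse 10 was the highest for Ear3 as it was for Rnase2a. Whether the Ear3 and Rnase2a probes each read only their own transcript was not tested.

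Eosinophils are the cells for which the ribonuclease group is named, and 8 of 11 listed eosinophil markers were measured. All 8, among them Epx, Prg2, Prg3, Siglecf, Ccr3 and Il5ra, were at the floor in all 11 mice. Neutrophils are another source known for Chil3, and 6 of 9 neutrophil markers measured, among them Ly6g, Mpo and Elane, were at the floor in all mice. The summed neutrophil markers, with Csf3r as the most abundant, lay between 334 and 630 normalized counts after PBS, where Chil3 was at the floor. Csf3r alone gave 251 to 555 of these counts. S100a8 read at most 82.5 after PBS and was at the floor in mouse 4, and S100a9 was at the floor in all PBS mice. Which cells gave the Csf3r counts was not tested. After IL-4c the neutrophil sum was 0 in mouse 5, where every such marker was at the floor, and 55.8, 58.0, 93.3, 57.9, 151 and 133 in mice 6, 7, 9, 10, 11 and 12.

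The genes were chosen by IL-4c against PBS, though with earlier results of these data known. The comparison of genotypes after IL-4c asks whether cells without RELMα made the chitinase-like and ribonuclease transcripts at another level. None of the 3 members (0 of 3) was called by limma, against 2.7% of the 445 genes (12, with 7 or 1.57% higher and 5 or 1.12% lower in RαTd/Td), and 0 of 3 had an unadjusted p below 0.05 by limma or by the study's unpaired test. The 12 calls became 27 without mouse 9, 11 without mouse 10, and 5 to 7 without any 1 of the other 9 mice. Chil3 was -0.27 in log2 in RαTd/Td against Rα+/+ (SE 0.22, 95% interval -0.76 to 0.23, adjusted p = 0.52), a fold of 0.832 with an interval from 0.591 to 1.17. Chil4 was -0.21 (SE 0.28, -0.83 to 0.41, adjusted p = 0.683), a fold of 0.865 with an interval from 0.563 to 1.33. Rnase2a was -0.09 (SE 0.43, -1.06 to 0.89, adjusted p = 0.947), a fold of 0.942 with an interval from 0.481 to 1.85. The exact permutation test, two-sided over 4 against 3 mice, gave p of 0.4, 0.571 and 0.914, where the smallest p the 35 arrangements allow is 0.0571, so this test could not pass 0.05 for any gene.

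Mouse 12 had the lowest Chil3 and Chil4 after IL-4c. Without it the differences were -0.10 for Chil3, -0.02 for Chil4 and 0.00 for Rnase2a. The Rnase2a difference, which was not called, turned above 0 without mouse 6, 7, 11 or 12, with a range from -0.46 to 0.21 over the mice left out. Ear3 differed by 0.22 (SE 0.37, adjusted p = 0.763), with -0.059 without mouse 7, -0.023 without mouse 10 and -0.21 under scaling to the positive controls.

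The scaling between mice sets the size of these differences. The median of all 445 genes was 0.12 in RαTd/Td against Rα+/+ after IL-4c with the housekeeping scale, -0.07 with each mouse centred on its median gene and -0.31 with the positive control probes. Of the calls, 58.3% were higher with the housekeeping scale, against 37.5% with centring, 41.7% with quantile normalization, 33.3% with the positive controls and 25% with 1 floor for all mice. Chil3, Chil4 and Rnase2a stood at -0.45, -0.40 and -0.27 with centring and at -0.70, -0.64 and -0.52 with the positive controls, and none was called. Quantile normalization turned Chil3 to 0.66 (adjusted p = 0.000106, against 0.279 to 0.952 under the other settings) and Chil4 to 0.53 (adjusted p = 0.198, against 0.448 to 1). That procedure gives each rank the same value in every mouse, 16.21, 15.55 and 14.85 in log2 for ranks 1, 2 and 3. Retnla, Chil3 and Chil4 held ranks 1, 2 and 3 in the Rα+/+ mice, whereas in RαTd/Td mice, with Retnla at the floor, Chil3 moved to rank 1 and Chil4 to rank 2 (rank 3 in mouse 12). The sign of the quantile values therefore follows from the missing Retnla counts.

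**Figure D2:**
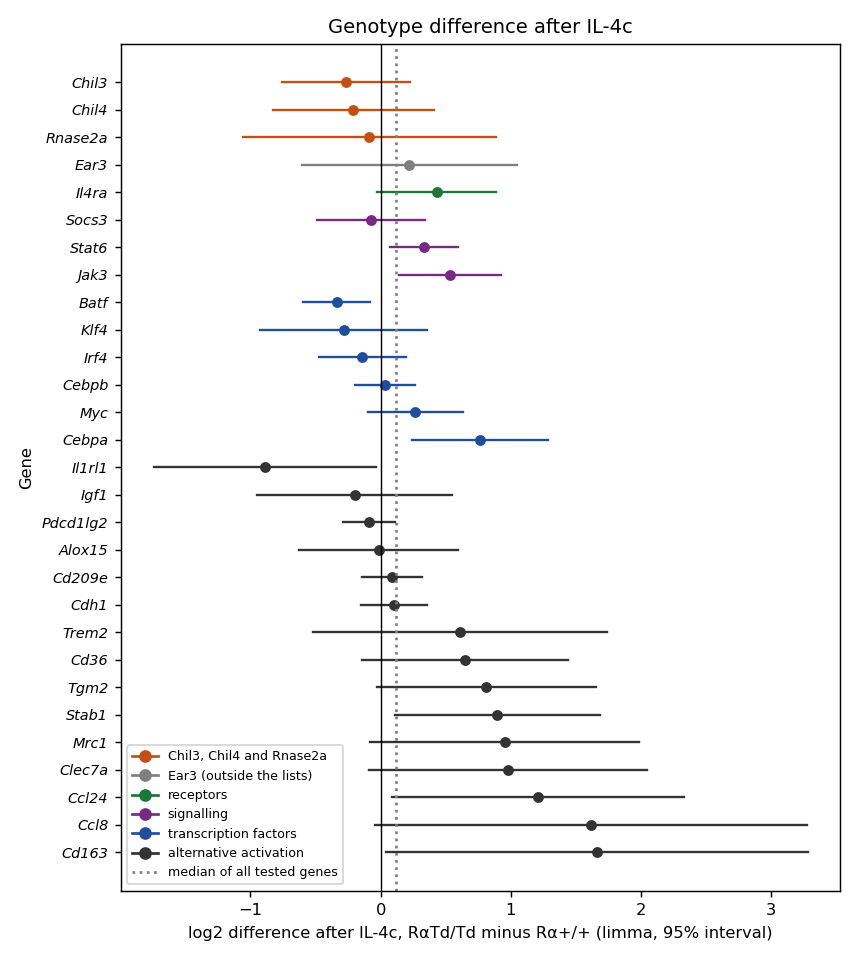
Log2 difference of RαTd/Td against Rα+/+ mice after IL-4c for Chil3, Chil4, Rnase2a, Ear3 and 25 genes of the IL-4 pathway and alternative activation, coloured by role, with points for the limma estimate on the housekeeping scale, bars for its 95% interval and a dotted line at the median of all tested genes (0.12). The intervals of Chil3 at -0.27 and Chil4 at -0.21 (0.66 and 0.53 under quantile normalization), Rnase2a at -0.09 and Ear3 at 0.22 (-0.21 with the positive controls) all span 0.

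A ratio within a mouse cancels the scaling factor of that mouse. The Chil4 to Chil3 ratio was 0.789, 0.779 and 0.786 in mice 5, 6 and 7 and 0.845, 0.831, 0.822 and 0.768 in mice 9, 10, 11 and 12. The highest and the lowest value were both in RαTd/Td mice. The difference between genotypes was 0.056 in log2 (exact permutation p = 0.229, adjusted p = 0.686 over 3 ratios, by the test that could not pass 0.05), beside SDs of 0.0099 among the Rα+/+ and 0.060 among the RαTd/Td mice. Mouse 12 decides the overlap: without it the difference was 0.085, and mice 9, 10 and 11 lay above all 3 Rα+/+ mice. As the probes differ in efficiency, the ratio is compared across mice only and does not give the relative abundance of the 2 transcripts.

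The Rnase2a to Chil3 ratio was more variable, at 0.0291, 0.0506 and 0.0377 in mice 5, 6 and 7 and 0.0385, 0.0699, 0.0257 and 0.0504 in mice 9, 10, 11 and 12. Mouse 10 had the highest and mouse 11 the lowest ratio, both RαTd/Td. The genotype difference was 0.18 (exact permutation p = 0.743, adjusted p = 0.8), and it was -0.016 without mouse 5 and -0.052 without mouse 10, with 0.43 at most over the mice left out. The Rnase2a to Chil4 ratio spanned 0.0312 in mouse 11 to 0.0841 in mouse 10, and its difference of 0.12 (exact permutation p = 0.8, adjusted p = 0.8) was -0.076 without mouse 5 and -0.099 without mouse 10, with 0.38 at most over the mice left out. Under quantile normalization, with the shifted ranks described above, the 3 differences were -0.13, -1.002 and -0.87.

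**Figure D3:**
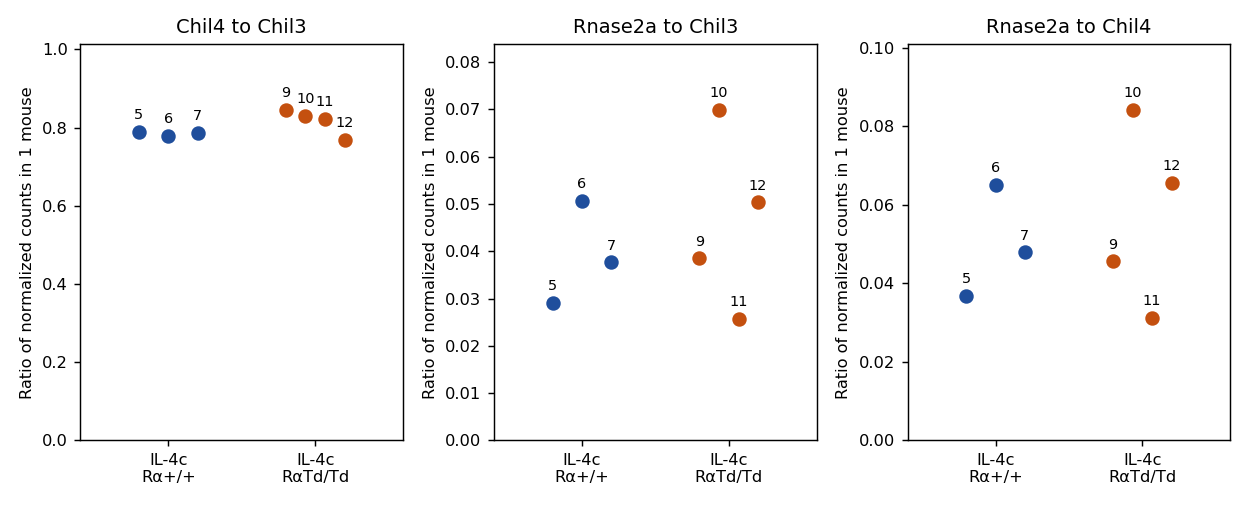
Ratios of normalized counts within each mouse given IL-4c, for Chil4 to Chil3, Rnase2a to Chil3 and Rnase2a to Chil4, by genotype. The Chil4 to Chil3 ratio stays between 0.768 and 0.845, while the Rnase2a to Chil3 ratio runs from 0.0257 to 0.0699.

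Across the 7 mice given IL-4c, Chil3 and Chil4 varied together. Pearson's r of the log2 values was 0.992 (exact permutation p = 0.00159, adjusted p = 0.00476 over 3 pairs), and Spearman's rho was 0.929 (exact permutation p = 0.00675, adjusted p = 0.0202). Without mice 7 and 12, the farthest from the median of Chil3, r was 0.981, and for deviations from the genotype means it was 0.996. The Chil3 and Chil4 transcripts are close copies, and whether each probe reads only its own transcript was not tested. All values of a mouse also share its housekeeping factor, and under quantile normalization r was 0.75 (exact permutation p = 0.229).

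Rnase2a followed the chitinase-like genes less closely. With Chil3, r was 0.732 (exact permutation p = 0.0627, adjusted p = 0.0714) and rho 0.786 (exact permutation p = 0.048, adjusted p = 0.072). With Chil4, r was 0.713 (exact permutation p = 0.0714, adjusted p = 0.0714) and rho 0.679 (exact permutation p = 0.11, adjusted p = 0.11). Mouse 12, lowest in Chil3 and Chil4 but above mice 5 and 11 in Rnase2a, lay off the line: without mice 12 and 7, r of Chil3 with Rnase2a was 0.988, and without mice 12 and 5, r of Chil4 with Rnase2a was 0.843. Without mouse 12 alone the r values were 0.868 and 0.882 (exact permutation p = 0.0417 and 0.0444). Other scalings moved r of Chil3 with Rnase2a to 0.741 with centring (exact permutation p = 0.0492), 0.799 with the positive controls (exact permutation p = 0.0302) and 0.767 for deviations from the genotype means (exact permutation p = 0.0468), and that of Chil4 with Rnase2a to 0.792 with the positive controls (exact permutation p = 0.0282). Quantile normalization gave -0.26 and -0.059.

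**Figure D4:**
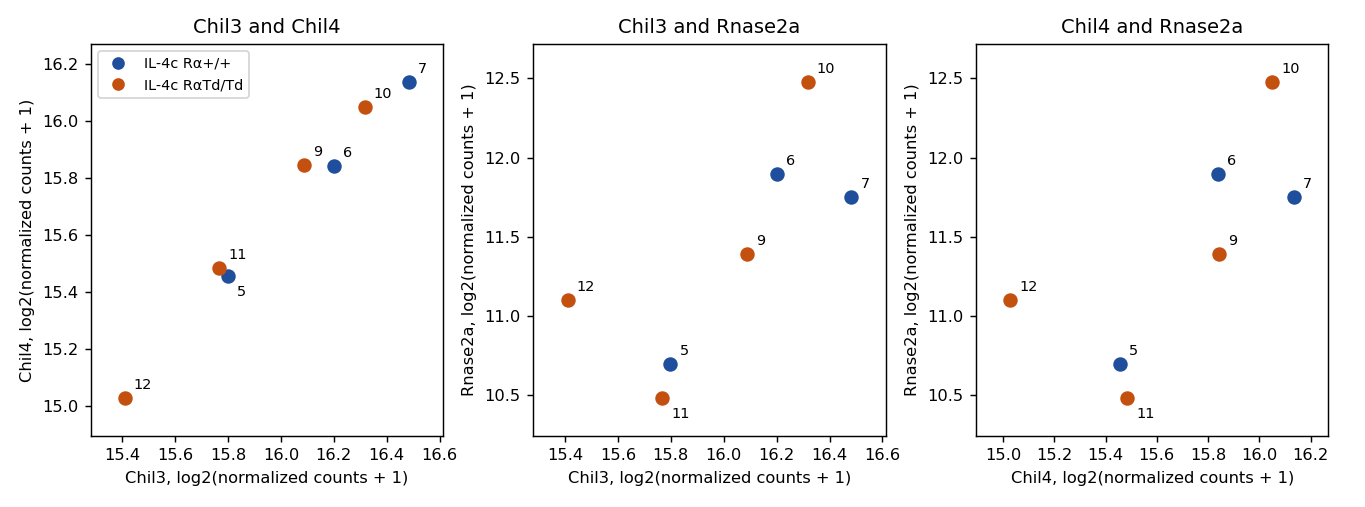
The log2 values (normalized counts + 1) of each pair among Chil3, Chil4 and Rnase2a in the 7 mice given IL-4c, with mouse numbers and genotype by colour. The Chil3 and Chil4 points follow a line (r = 0.992), and mouse 12 stands away from the other 6 in the panels with Rnase2a.

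The members varied more between mice of a group than most genes. On the log2 scale the SD among Rα+/+ mice given IL-4c was 0.34 for Chil3, 0.34 for Chil4 and 0.66 for Rnase2a, against a median of 0.14 over the 333 genes above the floor in all 7 mice given IL-4c. Among RαTd/Td mice it was 0.39, 0.45 and 0.83, against a median of 0.21. Of the 333 genes, 97.6% had a lower SD than Rnase2a in Rα+/+ mice and 96.7% in RαTd/Td mice. For Chil3 these shares were 88.6% and 80.2%.

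Of 8 listed markers of small peritoneal macrophages 7 were measured, and Itgax was at the floor in all mice. Their sum, with Cd74 as the most abundant, was 4759, 7630 and 4405 normalized counts in mice 5, 6 and 7 and 7071, 12415, 13297 and 18458 in mice 9, 10, 11 and 12. After IL-4c the highest sum was thus in mouse 12, with the lowest Chil3 and Chil4, and the lowest sum in mouse 7, with the highest Chil3 and Chil4, while mouse 5, with a low sum, was not high in either gene and mouse 10, with a sum above all but mice 11 and 12, was second highest in both. After PBS the sums were 7554 and 9262 in Rα+/+ and 24411 and 32687 in RαTd/Td mice. The sums lay mostly in Cd74, H2-Aa, H2-Ab1 and H2-Eb1. Ccr2 and Irf4, also in the sums, differed by 0.028 and 0.52 in log2 in RαTd/Td against Rα+/+ mice after PBS. After IL-4c these differences were 0.92 and -0.14, and limma called none of them. Whether the sums follow the number of small macrophages was not tested. Of the 6 genes with a mean above 30, limma called H2-Aa (1.31, adjusted p = 0.0474) and H2-Ab1 (1.36, adjusted p = 0.0421) higher in RαTd/Td mice after IL-4c, against 1.57% of all genes called higher and 1.12% lower. The alternatives for these markers were added after their values were seen. Both calls held without mouse 6 or mouse 9 and were lost without any 1 of the other 9 mice (1.14 to 1.31 for H2-Aa, 1.21 to 1.36 for H2-Ab1). Both were also lost with no filter, centring, quantile normalization, the positive controls (0.88 and 0.93), 1 floor for all mice, only the groups compared and the adjusted unpaired test, and H2-Aa with 10 added in place of 1. After PBS H2-Aa (1.97), H2-Ab1 (1.94) and Cd74 (1.73) were called higher in RαTd/Td mice, against 8.09% of all genes called higher and 1.57% lower. None of the 3 was called with no filter, the positive controls (1.303, 1.28 and 1.07), only the groups compared or the adjusted unpaired test, nor Cd74 with quantile normalization (1.82). Without mouse 2 or mouse 4 the 3 calls were lost (2.05, 2.12 and 1.88, then 1.75, 1.67 and 1.53), as were H2-Ab1 and Cd74 without mouse 1 (1.76 and 1.58) and Cd74 without mouse 3 (1.93) or any of mice 5, 7, 10 and 11 (1.73).

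Sums for large peritoneal macrophages, with 3 of 7 genes measured and Timd4 as the most abundant on average (Selp in mouse 5), ran from 2686 to 3596 after IL-4c, with 2838 in mouse 12, and from 4844 to 7514 after PBS. The lower sums lay in Timd4 and Selp. Gata6, also in the sum, had means of 608 after PBS and 599 after IL-4c in Rα+/+ mice. In RαTd/Td mice its means were 639 and 611. With IL-4c limma called 2 of the 3 genes lower and 1 not, in each genotype. Monocyte markers, with 3 of the 5 used here measured, Nr4a1 with the highest mean over the 11 mice and Cx3cr1 at the floor, summed to 434 to 815 after PBS and, after IL-4c, to 543 in mouse 12 against 135 to 281 in the other 6 mice. Ccr2, also listed for small macrophages, made up 464 of the sum in mouse 12 and exceeded Nr4a1 in mice 2 and 6 as well. The B cell gene Ms4a1, 1 of 8 listed, read 105 to 242 in the 4 mice given PBS and was above the floor after IL-4c only in mouse 12, at 63.1. Of the other lists, 0 of 8 T cell genes were measured, 3 of 3 dendritic cell genes measured were at the floor in all mice, and mast cell genes, 6 of 7 measured with 4 at the floor in all mice and Hdc as the most abundant, summed to between 109 and 319. Cpa3 was above the floor only in mouse 1, at 48.2, so in every other mouse the mast cell sum was Hdc alone. Of the other markers, the macrophage gene Mertk was called higher in RαTd/Td mice after IL-4c (0.78, adjusted p = 0.0421, with alternatives again added after the values were seen). The call held without mouse 7, 9 or 10 and was lost without any 1 of the other 8 (0.68 to 0.78), as well as with no filter, centring (0.59), quantile normalization (0.57), the positive controls (0.35), 1 floor for all mice, only the groups compared and the adjusted unpaired test. Hdc was called higher in RαTd/Td mice after PBS (1.02, adjusted p = 0.0436). That call held without mouse 1 (1.44) or mouse 12 and was lost without mouse 2 (0.60), mouse 3 (1.13), mouse 4 (0.91) or any 1 of the other 6 (1.02), as well as with no filter, centring (0.87), quantile normalization (0.87), the positive controls (0.36), only the groups compared and the unpaired test. The share of all genes called higher was 1.57% after IL-4c and 8.09% after PBS. On the housekeeping scale markers thus moved with IL-4c and some between genotypes, and the part of these cells in the member levels was not tested. With the positive controls the median IL-4c difference of all genes went from -0.18 to 1.09 in Rα+/+ mice. In RαTd/Td mice it went from -0.23 to 1.27, so the direction of the marker changes with IL-4c can depend on the scale.

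Other genes of the IL-4 pathway place the members in their setting. The transcripts of the ligands, Il4 and Il13, were at the floor in all 11 mice. Of the receptors, 1 of 4 was measured, Il4ra, which encodes the chain shared by IL-4 and IL-13 receptors. Il4ra was -0.89 in log2 after IL-4c in Rα+/+ and -0.87 in RαTd/Td mice, both called lower, but 0.39 and 0.64 with the positive controls as the scale. Neither was called with quantile normalization (-0.62 and -0.50), and the Rα+/+ difference was also not called in a fit to only the groups compared (adjusted p = 0.0604) or by the study's unpaired test (unadjusted p = 0.0587). The calls were also lost without mouse 1 (-0.85) or mouse 2 (-0.92) in Rα+/+ and without mouse 4 (-0.68) in RαTd/Td mice. Stat6 was -0.59 and -0.43, called lower, but 0.69 and 1.08 with the positive controls, where the RαTd/Td value was called higher (adjusted p = 0.00937). With centring it was -0.29 and -0.17, and neither was called; the Rα+/+ call was also lost by the unpaired test with adjustment and the RαTd/Td call with quantile normalization (-0.17), and in RαTd/Td mice it was not called without mouse 3 (-0.44) or mouse 4 (-0.41). Socs1 and the transcription factors Egr2 and Pparg were at the floor in all mice.

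Of 56 genes used here for ligands, receptors, signalling, transcription factors and alternative activation without Retnla, 39 were measured and 25 had a mean above 30. In Rα+/+ mice IL-4c gave 4 higher, 11 lower and 10 not called, with a median of -0.49 against -0.18 over all 445 genes, of which 46.3% were called. In RαTd/Td mice it gave 3 higher, 9 lower and 13 not called, with a median of -0.11 against -0.23, and 51.9% of all genes were called. These counts turn with the scale: with the positive controls, which raised the median of all genes to 1.09 and 1.27, they were 12 higher and 2 lower in Rα+/+ and 16 higher and 1 lower in RαTd/Td mice. Centring gave 5 higher and 7 lower in Rα+/+ and 7 higher and 6 lower in RαTd/Td mice, and quantile normalization 5 and 9 and then 4 and 5. Over all genes the share of calls that were higher went from 30.1% and 29.4% to 92.4% and 95.8%, and to 53.5% and 48.6% with centring and 49.3% and 44.9% with quantile normalization. Of the 4 housekeeping genes that set the scale, Rpl19 came nearest to a call, at -0.25 with IL-4c in RαTd/Td mice (adjusted p = 0.053). The positive control probes themselves had geometric means of 853 to 1021 in samples from PBS mice and 301 to 623 in those from IL-4c mice.

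Of these 25 genes, 1 was called higher in both genotypes and under every scaling, Il1rl1, which encodes the IL-33 receptor ST2. Its log2 difference with IL-4c was 3.82 (SE 0.45, adjusted p = 0.000136) in Rα+/+ and 2.93 (SE 0.43, adjusted p = 0.000458) in RαTd/Td mice. At the floor with PBS, it read at least 11.4-fold higher with IL-4c in Rα+/+ and at least 4.19-fold higher in RαTd/Td mice. The transcription factor genes Klf4 (1.64), Batf (0.88) and Irf4 (0.55) were called higher in Rα+/+ mice, and Irf4 was not called without mouse 2 or mouse 6 (0.30 and 0.44), with no filter (adjusted p = 0.0626), with only the groups compared (adjusted p = 0.115) or by the study's unpaired test (unadjusted p = 0.106). In RαTd/Td mice the mannose receptor gene Mrc1 (1.69) and the transglutaminase gene Tgm2 (2.59, at least 4.48-fold with 1 of 2 PBS mice above the floor) were called higher, and Mrc1 was not called without mouse 3 or mouse 4 (1.62 and 1.75), with no filter (adjusted p = 0.0791), with only the groups compared (adjusted p = 0.0822) or by the unpaired test (unadjusted p = 0.0676). Clec7a, which encodes the glucan receptor Dectin-1, was lower in both genotypes, at -3.28 and -2.86, under every scaling. After IL-4c it was at the floor in Rα+/+ mice 5 and 7 and RαTd/Td mouse 9, so the size of both differences rests on the floor.

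Between genotypes, 0 of these 25 genes were called by limma after IL-4c (8 at an unadjusted p of 0.05 or less, against 97 of all 445), with a median of 0.33 against 0.12 over all genes. The other test run, the study's unpaired test with Benjamini-Hochberg adjustment, also called 0, with 4 at the unadjusted level, and the positive controls gave 1 lower. After PBS, 9.66% of all genes were called (43, of them 8.09% of all genes higher and 1.57% lower), and 83.7% of the calls were higher, against 61.5% with centring, 65.2% with quantile normalization and 0% with the positive controls. Of the 25, 1 gene was called, Batf, higher by 0.60 (adjusted p = 0.0393, -0.055 with the positive controls). It was not called with no filter, centring (0.46), quantile normalization (0.43), only the groups compared, trend and robust moderation or the adjusted unpaired test, and centring gave 1 of the 25 lower and the positive controls 4 lower. Leaving out 1 mouse moved the 43 calls to 73 (mouse 1), 17 (mouse 2), 25 (mouse 3), 3 (mouse 4), 19 (mouse 5), 21 (mouse 6), 26 (mouse 7) or 24 (mouse 10). Single mice also decided Batf, which was not called without any of mice 2, 3, 4, 5, 6, 10 and 11 (values from 0.49 to 0.71). The difference in IL-4c response was called for 1 of the 25, Batf at -0.94 (adjusted p = 0.0345), against 2.02% of all genes, 0.674% higher and 1.35% lower (9 calls, with 30 without mouse 1, 3 without mouse 4 or 6 and 5 without mouse 5 or 7), with -0.83 to -1.05 over the mice left out. The Batf call held without mouse 1 or mouse 12 and was lost without any 1 of the other 9. It was also lost with quantile normalization (-0.83), the positive controls (-0.71), trend and robust moderation and the filter on values above 30 in every mouse. Of the 25 genes, quantile normalization called 1 higher, centring 1 higher and 1 lower and the positive controls 4 higher. Of the 9 calls over all genes, 33.3% were higher, against 88.9% with the positive controls and 15.4% with 1 floor for all mice. For Klf4, Irf4, Mrc1 and Tgm2 the difference in response was not called, with adjusted p of 0.381, 0.219, 0.394 and 0.145.

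**Figure D5:**
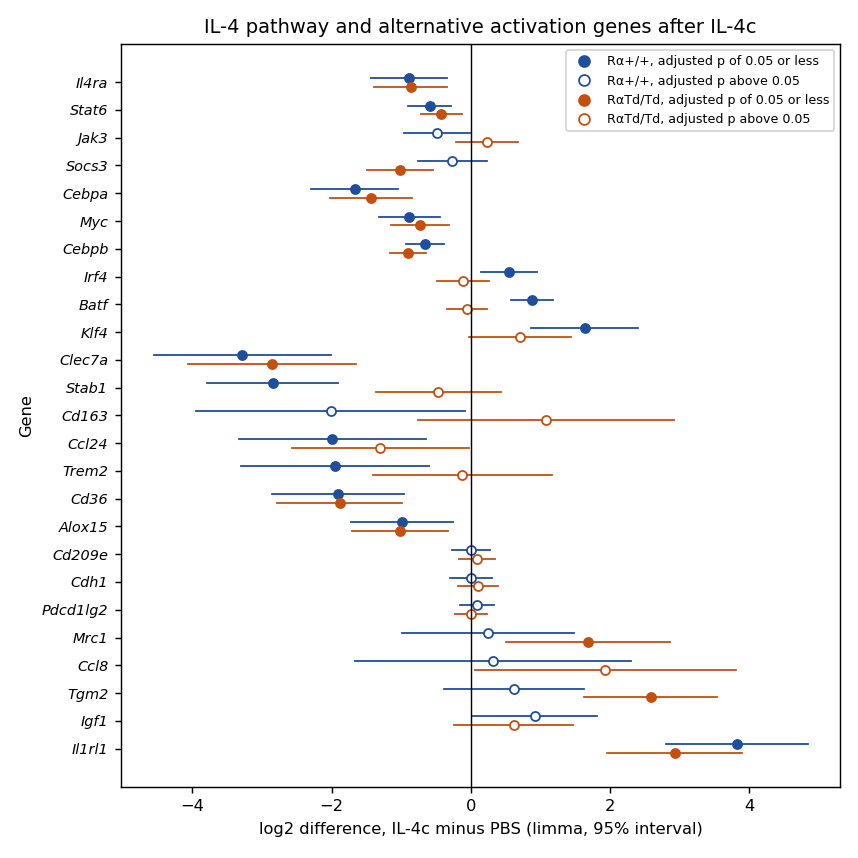
Log2 difference of IL-4c against PBS on the housekeeping scale for the 25 IL-4 pathway and alternative activation genes with a mean above 30, with limma 95% intervals, filled points for an adjusted p of 0.05 or less and colours for the genotype. Il1rl1 is called higher in both genotypes, and Il4ra and Stat6, called lower in both, stand above 0 with the positive controls as the scale.

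The profile over all 11 mice nearest to Chil3 was that of Chil4, at a root mean square difference of 0.33 in log2, followed by Rnase2a at 2.25, Ccnb2 at 3.64, Il1rl1 at 3.74 and Top2a at 3.81 among the genes used here, against a median of 5.44 over the other genes. For Chil4 the nearest was Chil3, then Rnase2a at 2.01, Ccnb2 at 3.40, Il1rl1 at 3.50 and Top2a at 3.57, with a median of 5.19. Rnase2a was nearest to Ccnb2 at 1.53, Il1rl1 at 1.61, Top2a at 1.67, C3 at 1.89 and Kif20a at 1.89, with a median of 3.26. These distances hold the IL-4c difference that chose the members, and they describe likeness of profile only.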

How the data were processed

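Each of 11 sorted peritoneal macrophage lysates, 1 per mouse, was read on the Nanostring Myeloid Innate Immunity v2 panel. The deposited signal values are counts scaled by the authors in the Nanostring Advanced Analysis software (version not stated), so that Eef1g, Gusb, Oaz1 and Rpl19 have 1 geometric mean in every mouse, with low values set to 30; the 14 control probes are listed as counts. For each mouse the factor that makes values up to 1000 whole within 0.1 was used to read back counts, depth and the lowest measurable value. limma 3.58.1 in R 4.3.3 was fitted to log2(value + 1) of the 445 genes with a mean above 30, with a mean for each of 4 groups. A call is a Benjamini-Hochberg p, over all 445, of 0.05 or less. Differences between the 7 mice given IL-4c were also tested by exact permutation, two-sided, as were ratios and correlations, in Python 3.11.15 with pandas 2.3.3, numpy 2.4.6 and scipy 1.17.1. Biopython 1.88 aligned the promoters (match 1, mismatch -1, gap opening -3, gap extension -1), and matplotlib 3.10.9 drew the figures. The fit was tested on simulated data.

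Named genes were the 3 members, listed genes of the IL-4 pathway, alternative activation, chitinase and ribonuclease families and cell types, the 4 housekeeping genes, the 5 genes nearest each member by profile and the 5 next in size of change. Genes not used here were left out of lists, sums and rankings, but not of the fit. The members and lists were chosen with earlier results of these data known. Alternatives covered filters, added constants, scalings, the floor, the fit, the unpaired test that the study names, run here on each gene, and leaving out each mouse.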

Additional observations from a re-analysis of the deposited data

Results flagged for a closer look

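Among the genes and groups described, 27 groups of 4 mice with no value at the floor were checked for a mouse far from the others, a restriction chosen after seeing the values, and 2 stood out; chance picks out about 1 in 20 such groups. Both were mouse 12, the RαTd/Td mouse with the lowest Chil3 and Chil4 after IL-4c. Its Ccl24, which encodes an eosinophil-attracting chemokine, was 3689 normalized counts against 657 to 1042 in the other 3 RαTd/Td mice. Its Trem2, a lipid-sensing receptor gene, was 342 against 76.5 to 90.9.

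The response to IL-4c differed between genotypes by limma's test of the difference for 2 of 30 genes checked. Over all 445 genes the share called was 2.02% (9 genes). Batf, a transcription factor gene, responded by -0.94 in log2 in RαTd/Td relative to Rα+/+ mice, and the call was lost without any 1 of 9 of the 11 mice and with quantile normalization, the positive controls, trend and robust moderation or a filter on values above 30 in every mouse. Retnla differed by -5.03, a call fixed by the deletion of its exons in RαTd/Td mice. It was at the floor in every RαTd/Td mouse, so this value is the Rα+/+ response of 5.03 with its sign turned.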

How the results depend on the processing

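No paired analysis was possible because the mouse numbers in the labels differ between all groups. With 2 mice in each PBS group, leaving a mouse out leaves 1, which is assumed to vary like the other groups. Values at the floor limit each fold that they enter, after PBS or, as for Clec7a, after IL-4c. A filter on values above 30 in every mouse drops the 3 members and gives them no value, and the unpaired test and the fit to only the groups compared have no form for the difference in response. Unless stated, the cause of a change was not tested.

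Genes called in RαTd/Td against Rα+/+ after IL-4c numbered 5 with no filter, 7 at a mean above 100, 6 above 30 in every mouse, 6 with the positive controls, 4 with 1 floor, 2 with only the groups compared, 73 by the unpaired test unadjusted, 2 adjusted, and 5 to 27 leaving out a mouse. After PBS they numbered 18 with no filter, 26 with centring, 23 with quantile normalization, 18 with the positive controls, 3 with only the groups compared, 2 by the adjusted unpaired test, and 3 to 73 leaving out a mouse. For the difference in response they numbered 4 at a mean above 100, 2 above 30 in every mouse, 18 with quantile normalization, and 3 to 30 leaving out a mouse. For IL-4c against PBS, calls ranged from 147 to 227 in Rα+/+ and from 162 to 243 in RαTd/Td mice leaving out a mouse.

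Quantile normalization, in which the missing Retnla moves the ranks, turned Chil3 to 0.66 and Chil4 to 0.53. The log2 ratio differences became -0.13 for Chil4 to Chil3, -1.002 for Rnase2a to Chil3 and -0.87 for Rnase2a to Chil4. The correlations became 0.75 for Chil3 with Chil4, -0.26 for Chil3 with Rnase2a and -0.059 for Chil4 with Rnase2a. At an unadjusted p of 0.05, the r of Chil3 with Rnase2a passed with centring (0.741), the positive controls (0.799) and deviations from genotype means (0.767), and that of Chil4 with Rnase2a with the positive controls (0.792). Leaving out a mouse gave -0.45 to -0.10 for Chil3, -0.39 to -0.02 for Chil4, -0.46 to 0.21 for Rnase2a, and ratio differences of 0.04 to 0.09 for Chil4 to Chil3, -0.052 to 0.43 for Rnase2a to Chil3 and -0.10 to 0.38 for Rnase2a to Chil4. Correlations were 0.985 to 0.995 for Chil3 with Chil4, 0.707 to 0.868 for Chil3 with Rnase2a and 0.652 to 0.882 for Chil4 with Rnase2a.

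With the positive controls, the IL-4c difference in Rα+/+ mice turned to 0.39 for Il4ra, 0.69 for Stat6, 0.39 for Myc, 0.62 for Cebpb and 0.29 for Alox15. In RαTd/Td mice it turned to 0.64 for Il4ra, 1.08 for Stat6 (called higher), 0.48 for Socs3, 0.77 for Myc, 0.078 for Cebpa, 0.61 for Cebpb and 0.49 for Alox15. The genotype difference turned to -0.055 for Batf after PBS and -0.21 for Ear3 after IL-4c, and for Ear3 also to -0.059 without mouse 7 and -0.023 without mouse 10, with 0.56 at most leaving out a mouse. Among the other values for single genes, 348 kept direction and call and 92 lost the call under the alternatives; leaving out a mouse, 339 kept both and 88 lost the call.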
